A study of Mus musculus with 8 samples.

Results

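The genes described here are those of the caveola coat: the caveolins *Cav1*, *Cav2* and *Cav3*, the cavins *Cavin1*, *Cavin2* and *Cavin3*, and *Ehd2*. They were taken by symbol as a protein family, with earlier results of these libraries known, and all 7 were found among the 54532 entries of the count table and among the 14150 genes tested. RNAseq was carried out on primary lung fibroblasts (pFBs) grown from the lungs of female mice of the C57/black background, with 4 libraries from wild type (WT) mice and 4 from homozygous (HOMO) transgenic mice, called WT1 to WT4 and HOMO1 to HOMO4. HOMO mice carry a CRISPR/Cas9 knock-in of human IGFBP5 (hIGFBP5), a secreted binding protein of insulin-like growth factors with pro-fibrotic activity, expressed ubiquitously rather than in fibroblasts alone. No treatment was given to either genotype, and the ages of the mice and the number of mice behind the libraries are not given in the sources used here. The question was which genes differ between HOMO and WT pFBs. The human transgene was not analysed here, and genotypes were taken from the library labels. The paper measured the transgene in the sequenced pFBs and reported it as undetectable in WT and high in HOMO.

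Caveolae are small flask-shaped pits of the plasma membrane, abundant in fibroblasts, endothelial cells, adipocytes and muscle. Caveolins insert into the cholesterol-rich inner leaflet as oligomers, cavins bind them from the cytosol as a peripheral coat, and the ATPase EHD2 sits at the neck and holds the pit at the surface. The pits flatten when membrane tension rises, and they hold or bind receptors and signalling proteins, among them receptors of the TGF-beta and PDGF families, for which they have been studied in lung fibrosis.

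Libraries of a genotype were not equally far apart. The biological coefficient of variation, the spread of a gene's true level between a pair of libraries, was 7.65% for WT1 and WT2, 4.71% for HOMO1 and HOMO2 and 5.07% for HOMO3 and HOMO4, against 30.0 to 56.4% for the other pairs. These 3 near-identical pairs still differed by more than sampling noise, with a chi-square per gene of 4.04 to 8.24 where counting alone gives about 1. For the other pairs it was 69.7 to 266. The excess within the near-identical pairs does not show that their libraries came from different mice. They were kept as separate libraries. The study speaks of differences between mice, but the sample records tie no library to a mouse, culture or litter, so p-values measure the spread between these libraries, part of which may be technical. Each comparison was therefore repeated with the near-identical libraries summed, which leaves 3 WT and 2 HOMO units. Between 17236521 and 31987790 reads were counted per library, and 3 counts, the floor used for genes at 0, corresponded to 0.0908 to 0.172 CPM (counts divided by the TMM-scaled depth of the library). The fibroblast markers *Col1a1*, *Col1a2*, *Col3a1*, *Pdgfra*, *Dcn*, *Lum*, *Thy1* and *Vim* were all tested and summed to 12383 to 16035 CPM in WT and 13714 to 24000 CPM in HOMO. Of these 8 markers 4 were higher and 4 lower in HOMO, with a median log2 fold change of 0.01, and 4 had an unadjusted p under 0.05. Over all tested genes 32.3% had an unadjusted edgeR p under 0.05. The collagen genes *Col1a1* and *Col1a2* had log2 fold changes of 0.82 and 0.66 and *Thy1* had −1.62, none called by edgeR (adjusted p = 0.0985, 0.105 and 0.116), whereas DESeq2 called 4 of the list. *Vim*, which encodes the intermediate filament vimentin, was the 1 marker called by edgeR (log2 fold change −0.65, adjusted p = 0.0430), and the call was lost on leaving out any library except WT3.

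Of the caveola coat genes, *Cav2*, *Cav3*, *Cavin1* and *Cavin2* were downregulated in HOMO pFBs, while *Cav1*, *Cavin3* and *Ehd2* did not pass the test. All 7 had a negative log2 fold change, with a median of −1.14 against −0.04 over all tested genes, of which 52.7% were lower in HOMO. A gene was called a DEG at an adjusted p under 0.05 in edgeR's two-sided quasi-likelihood test, adjusted over all tested genes, and an absolute log2 fold change above 0.6. By this rule 4 of 7 members were downregulated and 0 upregulated, whereas 12.1% of all tested genes were called in either direction, 6.18% as lower and 5.94% as higher in HOMO. The CPM of the WT and HOMO libraries did not overlap for 5 members, all with WT above HOMO, a pattern shown by 13.4% of tested genes, against 27.3% that did not overlap in either direction. DESeq2 called 6 members, all but *Cavin3*, where it called 16.5% of all genes, and edgeR with the replicate number as a block called 2, *Cavin1* and *Cavin2*, where it called 6.69%. Summed over the 7 members, the level was 1632 to 2597 CPM in WT libraries and 698 to 1008 CPM in HOMO libraries. With the near-identical libraries summed, all 7 log2 fold changes were again negative, but 0 members were called by edgeR, as were 0 of the 16130 genes then tested. In that comparison 3 members (*Cav3*, *Cavin1* and *Cavin2*) had an unadjusted p under 0.05, as did 12.8% of all genes. Lower counts in bulk RNA can come from fewer cells of a type or from less RNA per cell, and these cannot be told apart here.

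**Figure D1:**
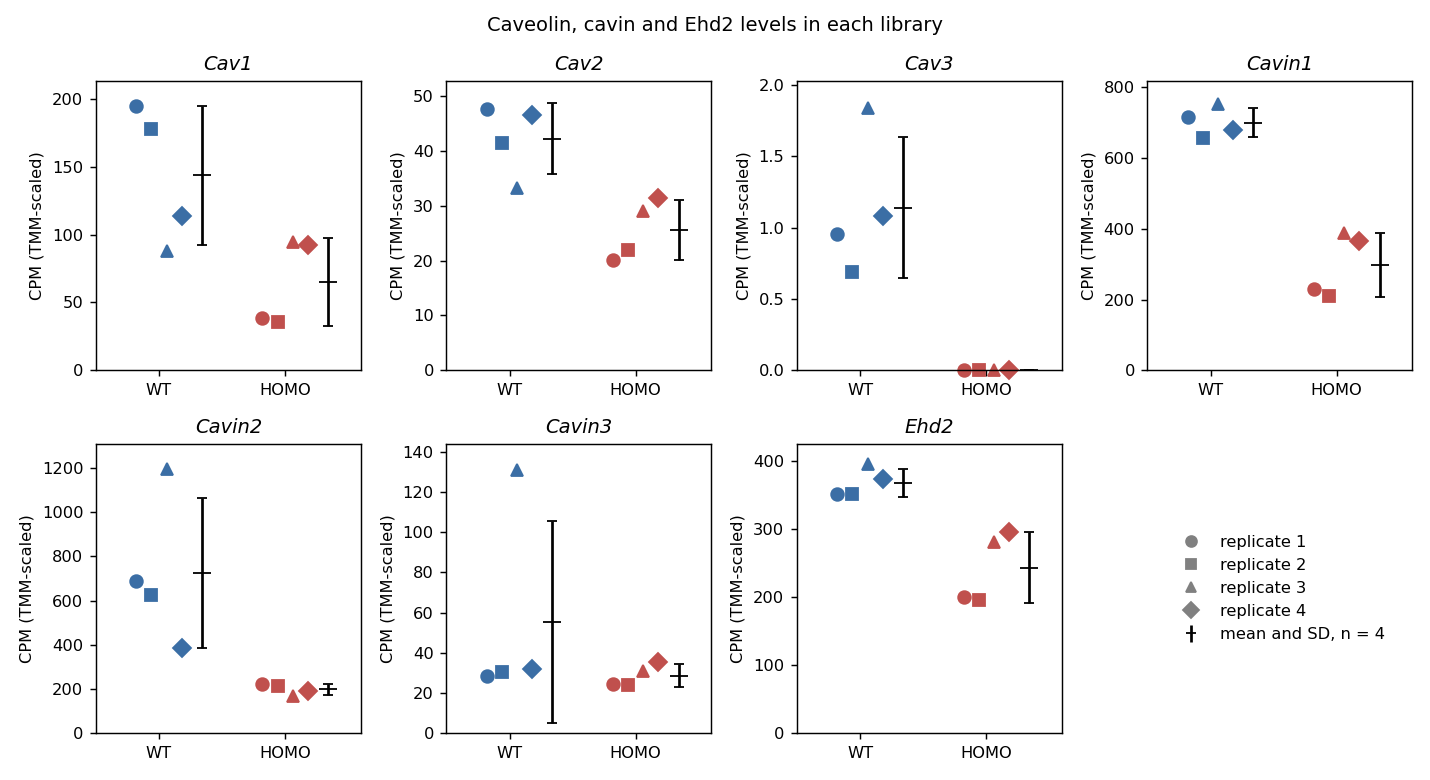
Level of each member in CPM on TMM-scaled library sizes, with 1 point per library (blue WT, red HOMO, shape by replicate number) and the mean with SD of 4 libraries beside them; each axis starts at 0. WT and HOMO points are apart for *Cav2*, *Cav3*, *Cavin1*, *Cavin2* and *Ehd2*, overlap for *Cav1* and *Cavin3*, and for *Cavin3* a single WT library, WT3, stands at 131 CPM.

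The 250 bases upstream of the start of *Cav1*, *Cav2*, *Cav3* and *Cavin2* are shown because the caveolins share a neighbourhood or a family and *Cavin2* had the steepest fall of the abundant members. They are RefSeq sequences on GRCm38.p6, 5′ to 3′ on the strand of the gene, and capitals mark a match to a searched motif. A RefSeq window was found for 6 of the 7 members, and those of *Cavin1* and *Ehd2* overlap the annotated gene and are described by their motifs alone. Positions are chr6:17306085-17306334 (+) for *Cav1*, chr6:17280935-17281184 (+) for *Cav2*, chr6:112459255-112459504 (+) for *Cav3* and chr1:51288876-51289125 (+) for *Cavin2*.
Cav1: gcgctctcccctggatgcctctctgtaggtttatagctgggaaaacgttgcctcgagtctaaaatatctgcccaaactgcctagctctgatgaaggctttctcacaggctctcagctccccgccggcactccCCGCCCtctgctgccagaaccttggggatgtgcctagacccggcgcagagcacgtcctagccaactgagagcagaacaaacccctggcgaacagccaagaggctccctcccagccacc
Cav2: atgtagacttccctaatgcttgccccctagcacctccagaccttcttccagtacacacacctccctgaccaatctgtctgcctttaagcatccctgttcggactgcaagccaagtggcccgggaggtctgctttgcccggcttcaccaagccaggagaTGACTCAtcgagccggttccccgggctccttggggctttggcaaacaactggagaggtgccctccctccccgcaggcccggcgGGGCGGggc
Cav3: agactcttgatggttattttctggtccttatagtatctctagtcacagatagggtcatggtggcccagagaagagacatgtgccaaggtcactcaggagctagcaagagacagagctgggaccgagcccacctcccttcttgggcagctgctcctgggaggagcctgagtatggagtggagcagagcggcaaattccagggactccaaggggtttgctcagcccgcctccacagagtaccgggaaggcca
Cavin2: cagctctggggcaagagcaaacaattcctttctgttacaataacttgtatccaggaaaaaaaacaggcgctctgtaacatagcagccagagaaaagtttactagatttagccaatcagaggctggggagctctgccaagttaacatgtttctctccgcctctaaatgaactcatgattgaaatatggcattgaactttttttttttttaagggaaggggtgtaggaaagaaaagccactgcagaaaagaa

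The motifs searched on both strands were the GC box GGGCGG, the E box CACGTG, the TEAD motif CATTCC, the AP-1 motif TGACTCA and the CArG box. In the *Cav1* window the GC box was found 118 bases before the start. *Cav2* held a GC box 9 bases and an AP-1 motif 92 bases before the start. A GC box lay 7 bases and a TEAD motif 247 bases before the *Cavin1* start, and *Ehd2* held a GC box 226 bases before its start. The windows of *Cav3* and *Cavin2* held no match, which says only that these letters are not in these bases. Over all 27025 RefSeq windows of this length, 33.0% held the GC box, 12.6% the TEAD motif, 6.04% the E box, 4.43% the AP-1 motif and 1.41% the CArG box, and a match is a description, not a site. The *Cavin2* window was 40.4% GC, the lowest of the 6 members, against 67.6% for *Cavin1*, 62.0% for *Cav2*, 59.6% for *Cav1*, 58.0% for *Ehd2* and 56.0% for *Cav3*, with a median of 52.0% over all windows.

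*Cav1* encodes caveolin-1, the main structural caveolin outside muscle, and lies at chr6:17306335-17341452 on the plus strand of mm10. In WT1 to WT4 it stood at 195, 178, 87.6 and 114 CPM, and in HOMO1 to HOMO4 at 38.7, 35.7, 94.4 and 92.1 CPM. HOMO1 and HOMO2 lay far below every WT library, while HOMO3 and HOMO4 lay above WT3, so the genotypes overlapped. The means were 144 ± 51.0 CPM in WT and 65.2 ± 32.4 CPM in HOMO (SD, n = 4 libraries each). The log2 fold change of −1.14 (SE 0.40) did not pass the test (edgeR adjusted p = 0.0903). Among the members *Cav1* had the widest gap within HOMO, with the HOMO3 and HOMO4 mean 2.51 times that of HOMO1 and HOMO2. Leaving out each library in turn gave log2 fold changes of −1.37 to −0.93, none called. DESeq2 and limma-voom with sample weights did call it. The paper, which used DESeq2, reports *Cav1*, *Cav2* and *Cav3* as downregulated.

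*Cav2* encodes caveolin-2, which reaches the surface in hetero-oligomers with caveolin-1, and its gene (chr6:17281185-17289115, plus strand) ends 17.2 kb before *Cav1*. Its levels were 47.6, 41.5, 33.3 and 46.6 CPM in WT1 to WT4 and 20.1, 21.9, 29.0 and 31.4 CPM in HOMO1 to HOMO4. Every HOMO library lay below every WT library, with HOMO4 and WT3 close together. The means were 42.2 ± 6.51 CPM in WT and 25.6 ± 5.43 CPM in HOMO (SD, n = 4 each), and *Cav2* was downregulated (log2 fold change −0.72, SE 0.19, edgeR adjusted p = 0.0417). The call was narrow: it held under 7 of 17 alternatives, and was lost on leaving out any library except WT3, with adjusted p between 0.0201 and 0.135 over these 8 fits. With the replicate number as a block the log2 fold change was −0.73 and the adjusted p 0.102.

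*Cav3*, at chr6:112459505-112472872 (plus strand), encodes caveolin-3, the caveolin of cardiac and skeletal muscle, and was the least abundant member. The WT libraries held 17, 16, 32 and 28 of its counts, 93 in all, and each HOMO library held 0. In CPM the WT libraries stood at 0.956, 0.686, 1.84 and 1.08, and a count of 3 in a HOMO library would have been 0.0908 to 0.152 CPM. Set against this floor per library, *Cav3* was at least 8.66-fold lower in HOMO than the WT mean of 1.14 ± 0.492 CPM (SD, n = 4), and its absence from HOMO pFBs cannot be shown at this depth. It was called downregulated (edgeR adjusted p = 0.00706), and a fitted fold change is not given because it depends on the prior count. The call held under 14 of 16 alternatives and was lost with the replicate block (adjusted p = 0.0634) and with near-identical libraries summed (adjusted p = 0.175). A filter of CPM above 1 in at least 4 libraries removed the gene. By qRT-PCR, the paper reports *Cav3* as lower in pFBs of HOMO female mice and not significantly changed in those of male mice.

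Because caveolin-3 is a muscle protein, the levels of muscle markers stand beside it. Of 19 striated muscle markers 5 were tested in edgeR, with 0 called and 0 at an unadjusted p under 0.05. DESeq2, read over all 19 markers rather than these 5, called 1. The list summed to 6.18 to 42.9 CPM in WT and 10.8 to 28.7 CPM in HOMO. Of the 5 tested markers 3 were lower and 2 higher in HOMO, with a median log2 fold change of −0.04. *Tnnt1*, a slow muscle troponin gene too low to be tested, was counted 6, 11, 12 and 9 times in WT and 0, 3, 2 and 1 times in HOMO. Its genotypes, like those of *Cav3*, did not overlap, but it was picked with its counts in view. The share of genes too low to be tested that do not overlap was not computed. The myogenic factors *Myod1*, *Myog*, *Myf5* and *Myf6* had 0 counts in all 8 libraries. The 9 smooth muscle and pericyte markers summed to 935 to 2864 CPM in WT, highest in WT3, and 321, 323, 1570 and 1544 CPM in HOMO1 to HOMO4. The sums in HOMO3 and HOMO4 were above those in WT1, WT2 and WT4. Of these markers 8 had a negative log2 fold change. The 1 called was *Rgs5*, a regulator of G protein signalling marking pericytes (log2 fold change −5.20, edgeR adjusted p = 0.0486), at 36.1 CPM in WT4 and 0.689 to 3.86 CPM in the other WT libraries. The *Rgs5* call was lost on leaving out any library except WT3 (adjusted p up to 0.142), and without WT4 the log2 fold change was −3.12. Their part in the members' levels was not tested.

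*Cavin1* (chr11:100956733-100970887, minus strand) encodes the cavin without which caveolae do not form. WT1 to WT4 stood at 716, 656, 752 and 679 CPM and HOMO1 to HOMO4 at 229, 210, 388 and 365 CPM. The WT libraries were tight, the highest being 1.15 times the lowest, and all HOMO libraries were below them. The mean fell from 701 ± 41.9 to 298 ± 91.7 CPM (SD, n = 4 each), that is to 42.5% of WT, and *Cavin1* was downregulated with a log2 fold change of −1.23 (SE 0.22, edgeR adjusted p = 0.0125). HOMO3 and HOMO4 averaged 1.72 times HOMO1 and HOMO2, in the same direction as for *Cav1*, *Cav2* (1.44 times) and *Cavin3* (1.39 times). The call held under 16 of 17 alternatives, including the replicate block (−1.28, adjusted p = 0.0333), and was lost only with near-identical libraries summed (−1.23, adjusted p = 0.302).

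*Cavin2* (chr1:51289126-51302960, plus strand), formerly *Sdpr*, encodes a phosphatidylserine-binding cavin that shapes the caveolar membrane. Its levels in WT1 to WT4 were 690, 623, 1197 and 386 CPM, and in HOMO1 to HOMO4 they were 222, 211, 168 and 189 CPM. WT was spread, with WT3 3.10 times WT4, yet the lowest WT library was above the highest HOMO library. The mean was 724 ± 341 CPM in WT and 198 ± 24.2 CPM in HOMO (SD, n = 4 each), and *Cavin2* was downregulated (log2 fold change −1.87, SE 0.32, edgeR adjusted p = 0.00966). Unlike the other members with counts in HOMO, its mean in HOMO3 and HOMO4 was below that in HOMO1 and HOMO2, at 0.822 times. Leaving out WT3 gave a log2 fold change of −1.52 and leaving out any 1 library kept the call. The call was lost only with near-identical libraries summed (−1.90, adjusted p = 0.302).

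*Cavin3* (chr7:105480083-105482300, minus strand), formerly *Prkcdbp*, encodes a cavin that binds protein kinase C delta. It stood at 28.5, 30.6, 131 and 31.7 CPM in WT1 to WT4 and at 24.2, 23.7, 31.1 and 35.4 CPM in HOMO1 to HOMO4. WT3 was alone at a high level, and the other 3 WT libraries lay within the range of HOMO. The log2 fold change over all libraries was −0.95 (SE 0.51, edgeR adjusted p = 0.228), from 55.5 ± 50.4 to 28.6 ± 5.67 CPM (SD, n = 4 each). It rested on that library: without WT3 it was −0.08, and with sample weights in limma-voom −0.04. No alternative called *Cavin3*. Genes of chromosome 7 were in the median 0.36 higher on the log2 scale in WT3 than in the other WT libraries (1045 genes), while *Cavin3* was 2.11 higher there, above 96.8% of them. *Cavin3* shares 374 exon bases, 22.5% of its exon length, with the antisense gene *Gm45667*, which had 0 to 3 counts per library. Since the strand setting of the counting is not given in the sources used here, reads in that stretch cannot be assigned with certainty.

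*Ehd2* (chr7:15946958-15967567, minus strand) encodes the neck ATPase. WT1 to WT4 held 352, 351, 395 and 374 CPM and HOMO1 to HOMO4 held 200, 196, 281 and 295 CPM. All HOMO libraries were below all WT libraries, and HOMO3 and HOMO4 again lay above HOMO1 and HOMO2, by 1.46 times. The means were 368 ± 20.9 and 243 ± 52.4 CPM (SD, n = 4 each), and the log2 fold change of −0.60 (SE 0.17) passed neither the adjusted p (edgeR, 0.0510) nor, before rounding, the fold threshold. *Ehd2* was called with DESeq2 (adjusted p = 0.0199) and with RLE normalization in edgeR (adjusted p = 0.0464). Unlike *Cavin3* on the same chromosome, *Ehd2* was only 0.14 higher on the log2 scale in WT3 than in the other WT libraries. The 1045 tested genes of chromosome 7, which holds both, had a median log2 fold change of −0.29 over all libraries, against −0.06 for chromosomes 1 and 6 and −0.07 for chromosome 11, where the other members lie. The part of this shift in the values of *Ehd2* and *Cavin3* was not tested.

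**Figure D2:**
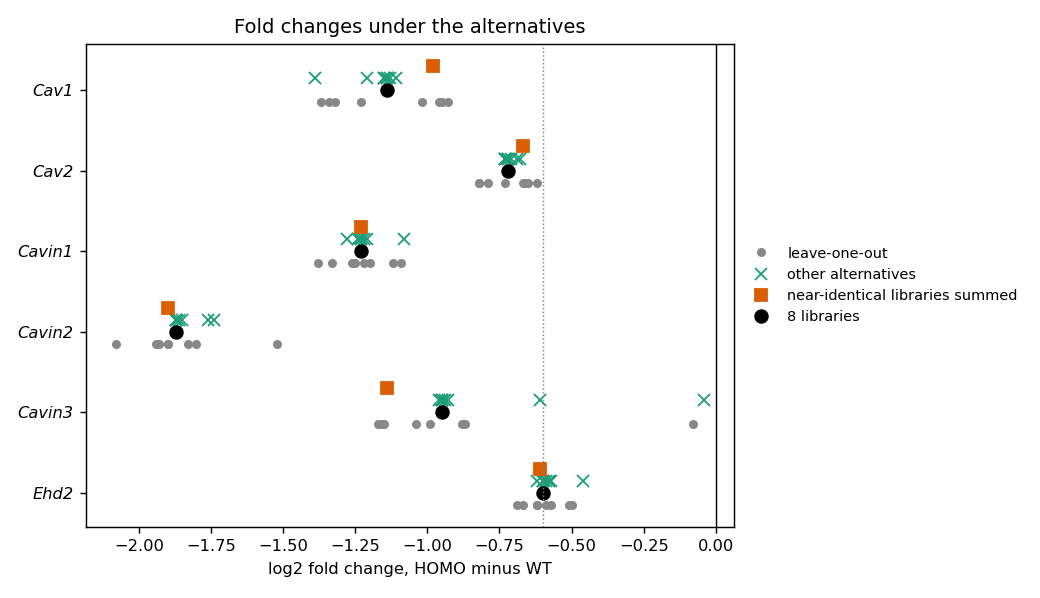
Log2 fold change (HOMO minus WT, horizontal axis) of 6 members with all 8 libraries (black), on leaving out each library (grey), under the other alternatives (green) and with near-identical libraries summed (orange); the dotted line marks −0.6 and *Cav3*, at 0 counts in HOMO, is not drawn. All points are below 0, and those of *Cavin3* reach −0.08 without WT3 and −0.04 with sample weights.

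Levels of different genes were compared per kilobase of exon. In WT, *Cavin2* stood at 237 ± 112 CPM per kilobase and *Cavin1* at 195 ± 11.7, followed by *Ehd2* at 71.9 ± 4.09, *Cav1* at 41.7 ± 14.8, *Cavin3* at 33.4 ± 30.3, *Cav2* at 12.7 ± 1.95 and *Cav3* at 0.986 ± 0.426 (SD, n = 4). In HOMO the order of the means was *Cavin1* (83.1 ± 25.6), *Cavin2* (64.7 ± 7.92), *Ehd2* (47.5 ± 10.2), *Cav1* (18.9 ± 9.41), *Cavin3* (17.2 ± 3.41) and *Cav2* (7.68 ± 1.63 CPM per kilobase). Neighbours in this order that were not separated were *Cavin2* and *Cavin1*, with *Cavin2* first in 5 of 8 libraries and *Cavin1* in 3, and *Cav1* and *Cavin3*, with *Cav1* above in 5 of 8. *Cavin1* was above *Ehd2*, *Ehd2* above *Cav1*, and *Cav1* above *Cav2* in all 8 libraries. *Cavin2* was also above *Ehd2* in all 8, but the levels nearly met in HOMO3 and HOMO4. By its mean level per kilobase *Cavin2* lay above 98.2% of tested genes, *Cavin1* above 98.1%, *Ehd2* above 94.9%, *Cav1* above 88.3%, *Cav2* above 66.7% and *Cav3* above 10.9%.

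**Figure D3:**
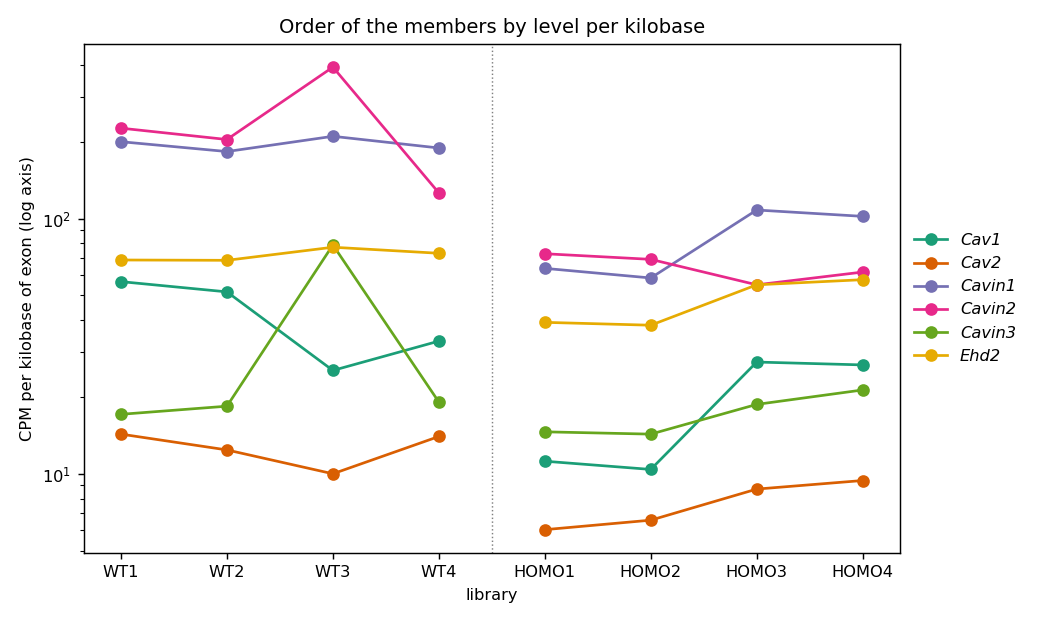
Level per kilobase of exon (CPM per kilobase, log axis) of 6 members in each library, with lines joining the libraries of a genotype only to guide the eye; *Cav3*, at 0 counts in HOMO, is not drawn. *Cavin1* and *Cavin2* lead in every library and *Cav2* is the lowest of the 6 in every library, while *Cav1* and *Cavin3* exchange places.

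Ratios between members in the same library do not depend on library scaling, and 5 of them were tested. The exact permutation test was two-sided over the 70 assignments of the libraries, with 0.0286 as its smallest p and Benjamini-Hochberg adjustment over the 5 ratios. Per kilobase, the *Ehd2* to *Cavin1* ratio was 0.345, 0.375, 0.369 and 0.386 in WT1 to WT4 and 0.614, 0.654, 0.507 and 0.566 in HOMO1 to HOMO4. All HOMO ratios were above all WT ratios, a log2 difference of 0.66 (exact p = 0.0286, the smallest possible, adjusted p = 0.143), and it lay between 0.61 and 0.73 on leaving out each library. The difference did not pass the adjusted threshold. With near-identical libraries summed the log2 difference was 0.65 and the exact p 0.1, the smallest possible for 3 against 2 units.

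The *Cavin1* to *Cav1* ratio was 3.52, 3.55, 8.23 and 5.71 in WT1 to WT4 and 5.67, 5.64, 3.95 and 3.80 in HOMO1 to HOMO4. It varied within WT more than between genotypes, with a log2 difference of −0.07 (exact p = 0.943). The log2 differences were 0.48 for *Cav2* to *Cav1* (exact p = 0.171), −0.48 for *Cavin2* to *Cavin1* (exact p = 0.314) and 0.65 for *Cavin3* to *Cavin1* (exact p = 0.2). In these 4 ratios the genotypes overlapped, and their adjusted p lay between 0.333 and 0.943. For *Cavin3* to *Cavin1* the difference was 1.15 without WT3.

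**Figure D4:**
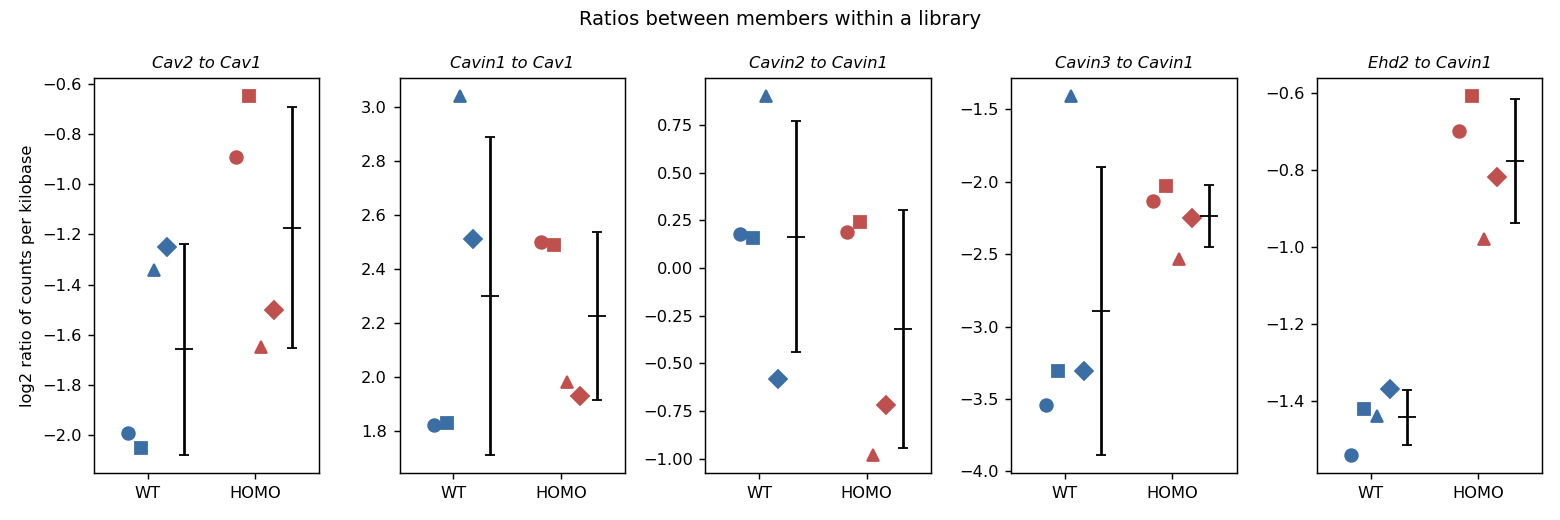
Log2 ratio of counts per kilobase of 5 pairs of members in each library (blue WT, red HOMO; circle, square, triangle and diamond for replicates 1 to 4), with mean and SD of 4 libraries. Only for *Ehd2* to *Cavin1* do the HOMO points lie wholly above the WT points, and each panel has its own vertical axis.

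Proteins that work with the coat were described from a list of 12 genes for the caveolar neck and accessory proteins, of which 10 were tested, 2 were downregulated and 1 upregulated, with a median log2 fold change of −0.55. The paralogs of *Ehd2* are in this list. *Ehd1*, an ATPase of endocytic recycling, stood at 295, 264, 284 and 222 CPM in WT1 to WT4 and 131, 137, 184 and 186 CPM in HOMO1 to HOMO4. Its genotypes did not overlap and it was downregulated (log2 fold change −0.74, SE 0.17, edgeR adjusted p = 0.0261). *Ehd4* was downregulated from 88.2 ± 36.4 to 42.2 ± 4.70 CPM (SD, n = 4 each; log2 fold change −1.06, SE 0.26, edgeR adjusted p = 0.0322). *Ehd3* had a log2 fold change of −0.86 and overlapping genotypes, and was not called (edgeR adjusted p = 0.231). *Dnm1*, the dynamin best known from neurons, was upregulated, from 12.9, 15.6, 36.7 and 13.0 CPM in WT1 to WT4 to 47.1, 48.5, 66.8 and 61.9 CPM in HOMO1 to HOMO4 (log2 fold change 1.52, SE 0.35, edgeR adjusted p = 0.0281). These calls depended on single libraries. *Dnm1* was called without WT3 or WT4 but not without any other library (adjusted p up to 0.0706), *Ehd1* was lost without WT1, WT2, HOMO1 or HOMO2, and *Ehd4* without any HOMO library, so that 0 genes of the list were called without HOMO1 or HOMO2. The ubiquitous dynamin *Dnm2*, which cuts vesicles from the membrane, averaged 162 CPM in both genotypes (log2 fold change 0.00, SE 0.10). The filamin gene *Flna*, whose product ties caveolin-1 to actin, was the most abundant of the list per kilobase and was not called (log2 fold change −0.26, edgeR adjusted p = 0.498).

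Of 31 genes for signalling proteins known to sit in or bind caveolae, 27 were tested, 5 were downregulated and 0 upregulated, with a median log2 fold change of −0.31. In edgeR 10 of the 27 had an unadjusted p under 0.05, against 32.3% of all tested genes. Among the called genes the steepest fall was that of the water channel gene *Aqp1*, from 3.26, 2.87, 13.5 and 2.21 CPM in WT1 to WT4 to 0.178, 0.575, 1.01 and 1.00 CPM in HOMO1 to HOMO4 (log2 fold change −2.98, SE 0.75, edgeR adjusted p = 0.0356). The *Aqp1* call was lost without any 1 of the HOMO libraries (adjusted p up to 0.114) and with the replicate block, and without WT3 the log2 fold change was −2.01. The fatty acid transporter gene *Cd36* had a log2 fold change of −3.83 with overlapping genotypes and was not called (edgeR adjusted p = 0.0649). *Plaur*, the urokinase receptor, fell from 54.2 ± 12.1 to 24.6 ± 8.63 CPM (SD, n = 4 each; log2 fold change −1.14, SE 0.27, edgeR adjusted p = 0.0298), a call lost without HOMO1, HOMO2, HOMO4 or WT4. Of the genes too low to be tested, *Nos3* and *Slc2a4* overlapped between genotypes, whereas *Bdkrb2* and *Trpc4* did not, in opposite directions. The share of such low genes without overlap was not computed. The bradykinin receptor gene *Bdkrb2* was counted 12, 4, 61 and 18 times in the WT libraries and 2, 0, 1 and 0 times in the HOMO libraries. The paper reports it as downregulated by DESeq2, and as lower by qRT-PCR and immunoblotting in pFBs of HOMO female mice. In those of male mice the paper found no significant effect by either method. The channel gene *Trpc4* was counted 0, 3, 1 and 0 times in WT and 19, 33, 13 and 6 times in HOMO. The integrin subunit gene *Itgb1*, the most abundant of the list per kilobase, was at 2145 ± 385 and 1448 ± 179 CPM and was not called (log2 fold change −0.57, edgeR adjusted p = 0.0778).

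Other membrane coats were compared in the same way. Of 14 genes for the clathrin coat, all tested, 2 were downregulated and 0 upregulated, with a median log2 fold change of 0.03. The clathrin light chain gene *Cltb* was downregulated from 189 ± 37.9 to 91.8 ± 1.85 CPM (SD, n = 4 each; log2 fold change −1.04, SE 0.16, edgeR adjusted p = 0.00640), whereas the other light chain gene, *Clta*, had a log2 fold change of 0.10 and overlapping genotypes. The endocytic adaptor gene *Epn2* fell from 80.3 ± 8.10 to 48.9 ± 0.871 CPM (log2 fold change −0.71, SE 0.12, edgeR adjusted p = 0.00855). Of 5 flotillin and stomatin genes, which encode relatives that organise membrane rafts, 1 was downregulated, *Stom*, from 105 ± 17.1 to 38.4 ± 12.6 CPM (log2 fold change −1.44, SE 0.25, edgeR adjusted p = 0.00984), and the list had a median of −0.46. The calls of *Cltb*, *Epn2* and *Stom* were kept on leaving out each of the 8 libraries and lost with near-identical libraries summed. *Flot1* was not called (log2 fold change −0.34, edgeR adjusted p = 0.504).

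Caveolins bind cholesterol, and of 14 genes of cholesterol supply and transport, all tested, 1 was downregulated, with a median log2 fold change of −0.27. *Lrp1*, an endocytic receptor and the most abundant of the list per kilobase, was not called (log2 fold change −0.24, edgeR adjusted p = 0.506). Among 9 genes for YAP, TEAD and MRTF-SRF factors, which couple membrane tension and actin to transcription, 0 were called by edgeR or DESeq2, 0 had an unadjusted p under 0.05 in edgeR, and the median was −0.14. *Wwtr1*, which encodes TAZ, had a log2 fold change of 0.20 (edgeR adjusted p = 0.572). Over the 6 lists 85 genes were named, 79 were tested and 12 called, which is 15.2% against 12.1% of all tested genes. By direction 11 were downregulated, 13.9% of those tested against 6.18% of all genes, and 1 was upregulated. With near-identical libraries summed 0 of them were called by edgeR. In that fit 13 of the 79 tested had an unadjusted p under 0.05, against 12.8% of all genes.

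**Figure D5:**
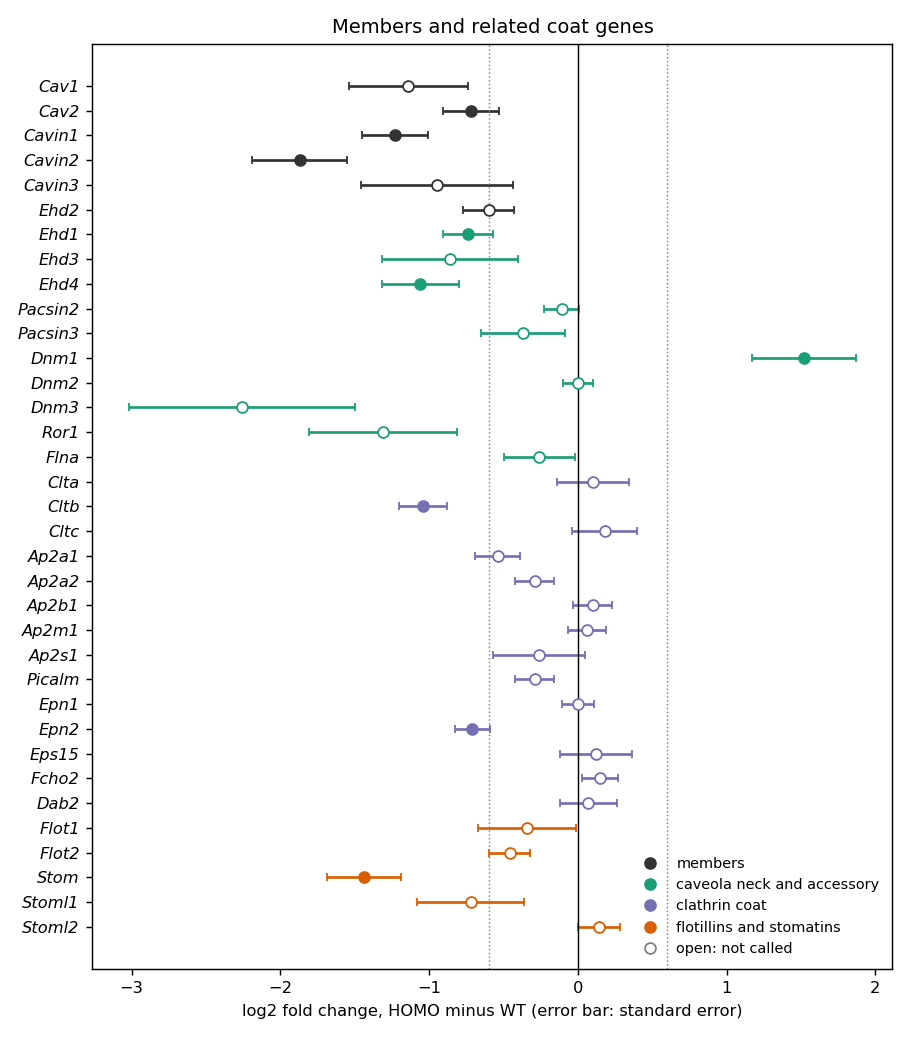
Log2 fold change (HOMO minus WT, horizontal axis) with its standard error for 6 members and the tested genes of 3 related lists, with filled points for called genes and dotted lines at −0.6 and 0.6; *Cav3* is not drawn. The members and the EHD genes lie left of 0, *Dnm1* lies right of it at 1.52, and 7 of the 14 clathrin coat genes lie left of 0.

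Markers of other cells that a lung culture can hold, some of them rich in caveolae, were summed beside the members. The 7 endothelial markers were near the floor, at 1.41 to 4.99 CPM in WT and 1.69 to 3.09 CPM in HOMO, with 1 tested and 0 called by edgeR or DESeq2 or at an unadjusted p under 0.05. The 6 adipocyte markers summed to 12.7 to 14.3 CPM in WT and 7.47 to 13.3 CPM in HOMO, with 0 of 2 tested genes called by edgeR or DESeq2 or at an unadjusted p under 0.05, and the defining genes *Adipoq* and *Lep* at 0 counts. Alveolar type 1 markers, from a cell type rich in caveolae, summed to 171 to 397 CPM in WT and 123 to 136 CPM in HOMO. That sum was carried by *Pdpn*, at 163 to 388 CPM in WT and 110 to 120 CPM in HOMO, while the list of 6 had 3 genes higher and 3 lower and a median log2 fold change of 0.06. *Pdpn* was downregulated (log2 fold change −1.08, edgeR adjusted p = 0.0343, lost without any 1 of the HOMO libraries) and *Hopx* upregulated (3.10, edgeR adjusted p = 0.00557). *Ager* stood at 0.675 to 1.89 CPM in WT and 2.36 to 3.42 CPM in HOMO and was not called by edgeR (1.27, edgeR adjusted p = 0.0556). DESeq2 called 3 of the alveolar type 1 list, and the paper, which used DESeq2, reports *Ager* as upregulated. The 6 other epithelial markers summed to 0.394 to 5.62 CPM in WT and 4.01 to 15.2 CPM in HOMO, with *Cdh1* upregulated (2.77, edgeR adjusted p = 0.0462) and 3 called by DESeq2. The *Cdh1* call was kept without WT3 or WT4 and lost without any other library (adjusted p up to 0.112). The 5 mesothelial markers summed to 51.8 to 155 CPM in WT and 92.2 to 131 CPM in HOMO, with *Wt1* upregulated (3.36, edgeR adjusted p = 0.0166, lost without HOMO1 or HOMO2) and 2 called by DESeq2. The 6 macrophage and leukocyte markers summed to 128, 155, 1911 and 1112 CPM in WT1 to WT4 and 56.6, 60.7, 160 and 182 CPM in HOMO1 to HOMO4. By edgeR 0 were called and 4 had an unadjusted p under 0.05, against 32.3% of all tested genes, and DESeq2 called 3. WT3 and WT4, which were high in these markers, were lowest in *Cav1* among WT, while *Cavin1* and *Ehd2* differed little between the 4 WT libraries. *Cavin2* and *Cavin3* were highest in WT3. Within HOMO, HOMO3 and HOMO4 were above HOMO1 and HOMO2 both in these markers and in *Cav1*. The part of these cells in the members' levels was not tested.

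The nearest tested protein-coding genes around the members moved in both directions. *Met*, 122 kb beyond *Cav1*, had a log2 fold change of 0.99 with all HOMO libraries above all WT libraries and was not called (edgeR adjusted p = 0.126), and *Tes*, 175 kb before *Cav2*, had −0.93 (edgeR adjusted p = 0.116). *Lmcd1*, 129 kb before *Cav3*, encodes a LIM domain cofactor and was downregulated (log2 fold change −2.30, SE 0.25, edgeR adjusted p = 0.00202), while *Rad18* on the other side was not called (−0.57, edgeR adjusted p = 0.567). *Stat3*, a signal transducer of interleukin receptors 17.2 kb from *Cavin1*, was upregulated where *Cavin1* fell (log2 fold change 0.68, SE 0.17, edgeR adjusted p = 0.0368; lost without WT1, WT2, HOMO1, HOMO2 or HOMO4), and *Atp6v0a1* had 0.54 (edgeR adjusted p = 0.199). Next to *Cavin2*, *Nabp1* was downregulated (log2 fold change −0.89, SE 0.20, edgeR adjusted p = 0.0250; lost without HOMO1, HOMO2 or HOMO4) and *Tmeff2* was not called (−0.31, edgeR adjusted p = 0.478). Around *Cavin3*, *Smpd1* had −0.74 (edgeR adjusted p = 0.0748) and *Fam160a2* 0.33 (edgeR adjusted p = 0.221). *Nop53*, 0.884 kb from *Ehd2*, had 0.20 (edgeR adjusted p = 0.613), and *Bicra*, 3.10 kb away on the other side, had 0.53 (edgeR adjusted p = 0.0877). *Met* was called without WT3, *Smpd1* without WT1 and *Atp6v0a1* without WT4.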

How the data were processed

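The authors used fastp for trimming, STAR with mm10 for alignment and featureCounts for counting, and deposited raw counts for 4 WT and 4 HOMO libraries. Versions, annotation and strand setting are not given in the sources used here, nor is the meaning of "outlierout" in the label of the table. Of 54532 entries, 53877 matched GENCODE M21 by symbol, and 0 columns were left unused. Counts were fitted with edgeR 4.0.16 (TMM, filterByExpr, quasi-likelihood F test, genotype only) in R 4.3.3, with Benjamini-Hochberg adjustment over 14150 genes. DEGs passed thresholds of 0.05 for the adjusted p and 0.6 for the size of the log2 fold change. Libraries held 17236521 to 31987790 counts. Log2 CPM used a prior count of 2 and ratios a pseudocount of 2 counts. Alternatives were DESeq2 1.42.0, limma 3.58.1 (voom with sample weights), RLE and upper-quartile normalization, robust dispersion, other filters, no fold threshold, summed near-identical libraries, a replicate block, a ratio pseudocount of 0.5 and leaving out each library. In simulated data with 200 of 14150 genes changed, edgeR recovered 74% of changes of size 2 and 14% of size 1 on the log2 scale with 6.38% of its calls false, and DESeq2 84% and 40% with 24.8% false. The simulated libraries were independent draws without near-identical pairs, and fewer genes were changed than were called in the real data. These shares therefore do not give the share of false calls in the real libraries. The floors cover counting error only, whereas the SDs and SEs include the spread between libraries. Members, lists and tests were chosen with earlier results of these data known. Named genes were the members, their nearest tested neighbours, the 3 genes most alike to each (not given for *Cav3*), of each pathway list the called genes (up to 3 rises and 3 falls) and the most abundant, and of each marker list the called genes (up to 2 each way). *Ehd3*, *Dnm2*, *Cd36*, *Bdkrb2*, *Trpc4*, *Tnnt1*, *Ager*, *Col1a1*, *Col1a2*, *Thy1* and the list genes at 0 were chosen with their values in view. A few of the genes so chosen are not reported here. The human transgene was not analysed here.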

Additional observations from a re-analysis of the deposited data

Results flagged for a closer look

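A library far from the other 3 of its genotype was looked for in 66 named genes and ratios, or 132 groups of 4 libraries, with Dixon's test at the 95% level. Chance would give such a library in about 1 in 20 groups of 4 independent libraries. Near-identical pairs are not independent, so this rate does not hold here. HOMO, made up of near-identical pairs, could hardly give such a library, and in WT it is more readily WT3 or WT4. In all 5 were found, each of them WT3. *Cavin3* stood at 7.03 log2 CPM in WT3 against 4.84 to 4.99 in the other WT libraries. The log2 ratio of *Cavin3* to *Cavin1* was −1.41 in WT3 against −3.54 to −3.31. *Car11* and *Ssc5d*, chosen for their likeness to *Cavin3*, stood at 3.89 against 1.93 to 2.23 and at 8.20 against 6.32 to 6.53 log2 CPM. *Nop53*, the neighbour of *Ehd2*, stood at 7.41 against 6.44 to 6.57 log2 CPM. *Cavin3*, *Car11*, *Ssc5d* and *Nop53* are all on chromosome 7, whose genes were in the median 0.36 higher on the log2 scale in WT3 than in the other WT libraries.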

How the results depend on the processing

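Of 118 fold changes of members under alternatives, 100 kept their direction and side of the thresholds, 14 lost the call, 4 gained it and 0 changed sign. For other named genes these were 745, 155, 12 and 5 of 917. With near-identical libraries summed, 0 DEGs remained in edgeR against 1716 (2057 genes had an unadjusted p under 0.05), with 0 members and 0 pathway genes called against 4 and 12. DESeq2 called 2913 DEGs. With limma-voom and sample weights 3573 of 14150 tested genes were called, among them 19 of the 79 tested pathway genes. On leaving out each library, DEGs numbered 507 to 2192, members called 3 to 4 and pathway genes called 3 to 17. DEGs numbered 507 without HOMO1, 512 without HOMO2, 1040 without HOMO3 and 980 without HOMO4, and pathway genes 3 without HOMO1, 4 without HOMO2 and 7 without HOMO3. The replicate numbers do not pair the libraries: deviations of same-numbered WT and HOMO libraries correlated at −0.09, −0.04, 0.01 and −0.12. With the replicate block there were 947 DEGs and 2 members called (*Cavin1* and *Cavin2*), and the *Ehd2* to *Cavin1* ratio had p = 0.125, the smallest that an exact test of 4 pairs allows. The sign changed for *Clta* (−0.01 with libraries summed, −0.03 to 0.28 on leaving out each library), *Flot1* (0.16 with limma-voom) and *Tmeff2* (−0.43 to 0.03 on leaving out each library). The *Cavin1* to *Cav1* log2 ratio difference ranged from −0.23 to 0.17, and turned to 0.17 without WT3, 0.01 without HOMO3 and 0.03 without HOMO4. The cause was not tested.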

Other observations

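The members were compared with every other tested gene by the root mean square difference between profiles of log2 CPM over the 8 libraries, each centred on its own mean, so that a small value means a like pattern. No test was made, since several libraries are near-identical. Nearest to *Cav1* were *Cacna2d1* (0.17), *Tspan12* (0.19) and *Pde7b* (0.20), on chromosomes 5, 6 and 10, and among those nearest to *Cav2* were *Capn2* (0.09) and *St3gal5* (0.10). *Cavin1* had *E2f1* (0.10), *Pgk1* (0.12) and *Lhfpl2* (0.12), and *Ehd2* had *Srxn1* (0.06), *Cyp20a1* (0.06) and *Mrps25* (0.07). Nearest to *Cavin2* were *Twist2* (0.27), *Gbp2* (0.29) and *Tnnc1* (0.30). No such genes are given for *Cav3*, whose 4 HOMO values are set by the prior count.

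Among the members themselves, *Cav2* and *Ehd2* were closest (0.19), followed by *Cavin1* with *Cav2* and *Cavin1* with *Ehd2* (0.35 each). By likeness to *Cav2*, *Ehd2* ranked 111 and *Cavin1* 1339 of 14149 genes. By likeness to *Ehd2*, *Cav2* ranked 330 and *Cavin1* 2478, and by likeness to *Cavin1*, *Ehd2* ranked 274 and *Cav2* 296. *Cav1* was nearer to *Cavin1* (0.41) than to its genomic neighbour *Cav2* (0.46), and these ranked 107 and 176 of 14149 genes by likeness to *Cav1*. In turn *Cav1* ranked 587 by likeness to *Cavin1* and 3439 by likeness to *Cav2*. *Cavin3* was far from *Cav1* (1.03, rank 8856). The genes nearest to *Cavin3*, namely *Car11* (0.12) and *Ssc5d* (0.13) on chromosome 7 and *Rab23* (0.15) on chromosome 1, were not called.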
